A study of Mus musculus with 3 samples.

Results

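The nuclear genes of respiratory complex I were taken as all protein-coding mouse genes whose symbol is Nduf, then a, b, c, s or v, then a number. The rule found 36 of the 29267 genes in the tables, and all 36 had counts in every library. They lie on 15 chromosomes, with at most 5 on one (chromosome 17), in the GENCODE M21 annotation of GRCm38. Complex I, the NADH:ubiquinone oxidoreductase of the inner mitochondrial membrane, takes electrons from NADH and passes them through a flavin and a chain of iron-sulfur clusters to ubiquinone, while its membrane arm pumps protons. Its core is made of nuclear-encoded subunits in the matrix arm and mitochondrially encoded subunits in the membrane arm, and many accessory subunits surround it and are needed for its assembly or stability. Fibroblasts in culture and pluripotent stem cells are known to differ in how far they rely on oxidative phosphorylation.

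Gene expression was measured by RNA-seq of total RNA in 3 libraries. MEFs, which are mouse embryonic fibroblasts, came from the OG2 strain, a mouse line with a GFP reporter of Pou5f1 (Oct4), and from ICR mice, and both were at passages 3-5. The other library was from embryonic stem cells (ESCs) of the R1 line, labelled naive, at passage 30. No treatment is given for any of them, and all libraries were built with the TruSeq RNA kit from the same amount of RNA. The MEFs served as 2 samples of 1 group and the ESCs as a group of 1 sample, so each strain or line is 1 library. The study used such libraries as the start and end points of reprogramming of fibroblasts to pluripotent cells.

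The depth was 5149312 and 4590619 expected counts for OG2 and ICR MEFs, against 1717838 for the ESC library, where an expected count is the number of reads that RSEM assigns to a gene. A level of 3 counts, taken as the detection limit, corresponded to 0.583, 0.654 and 1.75 CPM, which is the count scaled to a fixed library total. The ESC library went against its label in part. Of 8 pluripotency markers, Pou5f1 had 71 counts, Nanog 51.1 and Sox2 32, against 0 to 4 in both MEF samples, while Zfp42, Dppa5a, Esrrb and Lin28a were at 0 and Tdgf1 at 2. All 6 fibroblast markers were at least 1 log2 unit below both MEF samples, but Col1a1 still had 1155 counts in the ESC library, after 53373 and 48730 in the MEFs. Krt8, an epithelial keratin, had 177 counts against 6 and 19, and Epcam 11 against 0 and 0. Pecam1, which both endothelial cells and ESCs use, had 89.6 against 0 and 0, while the endothelial genes Cdh5 and Kdr were at 0. Of the blood markers Ptprc was at 0 and Cd68 and Cd14 had 11 and 3 counts. The part of these differences in the results on complex I was not tested, and the library is called the ESC-labelled library from here on. Because these are bulk libraries, more cells of a type and more RNA per cell cannot be told apart.

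Most complex I genes were higher in the ESC-labelled library than in either MEF sample. On the log2(CPM + 1) scale, with CPM scaled by TMM factors, 26 of 36 genes exceeded both MEF samples by at least 1 log2 unit, and the same held for 21.9% of all 17810 genes with a count. Only Ndufs1 of the 36 was at least 1 unit below both, against 25.9% of all genes. The share of complex I genes above the MEFs was thus far larger than that of all genes, and the share below was smaller. The median difference from the MEF mean over the 36 genes was 2.08 (interquartile range 0.95 to 2.81), whereas it was -0.13 over all genes with a count and -0.43 over the 12726 genes with at least 10 counts in a library. In TPM, which RSEM scales by transcript length, 13 genes were higher and 5 lower by the same rule, against 9.12% and 43.2% of all genes, and the median of the 12726 genes moved by -1.11. Relative to that gene median the 36 genes stood 2.51 log2 units higher in CPM and 2.22 in TPM, but 1.64 higher after a correction over bins of gene length. Under that correction 22 genes were higher and 2 lower by the rule, against 23.9% and 21.4% of all genes. The 13 genes that passed the rule in CPM and not in TPM had TPM differences from -0.37 (Ndufa1) to 0.89 (Ndufb2).

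The quasi-likelihood test of edgeR, fitted over 12663 genes, called 30 complex I genes higher and 1 lower, and 5 were not called. Of all tested genes, 31.4% were called higher and 36.0% lower. With 1 residual degree of freedom, the test took its spread from the pair of MEF samples. These samples also differ in strain, and neither strain has a replicate. For a single gene the smallest exact permutation p that 2 samples against 1 allow is 0.333 (two-sided).

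**Figure D1:**
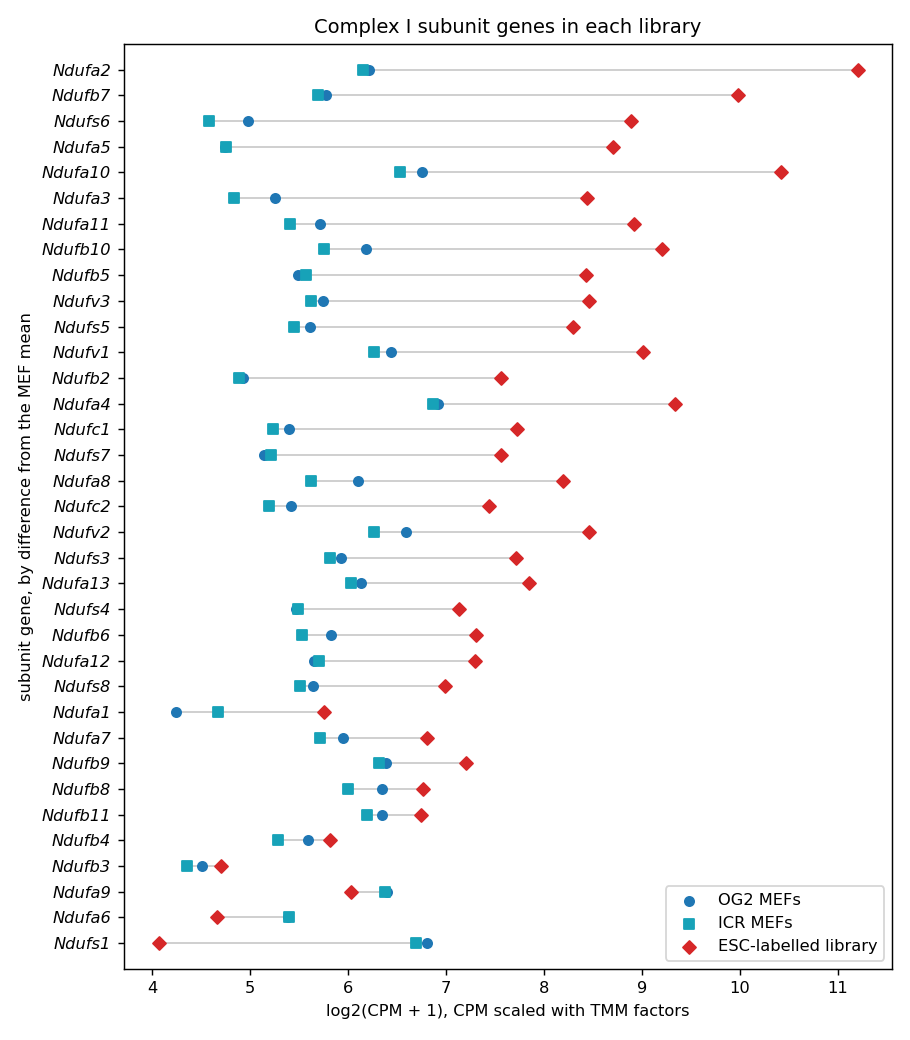
Level of 35 of the complex I genes on the log2(CPM + 1) scale (x axis), with 1 row for each gene ordered by the difference between the ESC-labelled library (diamonds) and the mean of OG2 (circles) and ICR MEFs (squares). The diamond lies right of both MEF symbols for 32 genes and left of both for 3, while the MEF symbols of each gene lie less than 1 log2 unit apart.

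The 7 nuclear core subunits carry the flavin, the iron-sulfur clusters and the ubiquinone site. Of these 5 were higher than both MEF samples by at least 1 log2 unit and 1 was lower, with a median difference of 1.84. Ndufv1 (ENSMUSG00000037916, chr19:4007384-4012806, minus strand), which binds the flavin and oxidizes NADH, had 482 and 392 counts in OG2 and ICR MEFs, against 720 in the ESC-labelled library, although the latter was the shallowest. On the log2(CPM + 1) scale it was at 6.44 and 6.26 in the MEFs and 9.01 in the ESC-labelled library. It had the largest rise of the core, with a difference of 2.67 (edgeR adjusted p = 1.1e-06). Ndufv2, its iron-sulfur partner at the tip of the matrix arm, was at 6.59, 6.27 and 8.46 in the same order, a difference of 2.03 (edgeR adjusted p = 8.2e-06).

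Of the core subunits near ubiquinone, Ndufs7, which holds the terminal iron-sulfur cluster, was at 5.15 and 5.22 in OG2 and ICR MEFs, against 7.56 in the ESC-labelled library, a difference of 2.38 (edgeR adjusted p = 1.3e-06). Ndufs3, a structural subunit of the same module, was at 5.93, 5.82 and 7.72, a difference of 1.84 (edgeR adjusted p = 5.3e-06). Ndufs8, which holds a pair of iron-sulfur clusters, was at 5.64, 5.51 and 6.99, a difference of 1.42 (edgeR adjusted p = 3.3e-05), but its difference was -0.17 in TPM. For each of these 3 genes the ESC-labelled library lay above both MEF samples in CPM, and the MEF samples lay within 0.14 of each other.

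Ndufs1 was at the other end. Ndufs1 (ENSMUSG00000025968, chr1:63143596-63176833, minus strand), the large iron-sulfur subunit between Ndufv1 and the ubiquinone module, had 625 and 529 counts in the MEFs and 22 in the ESC-labelled library, or 12.8 CPM before scaling (95% Wilson interval 8.46 to 19.4). Its levels were 6.81 and 6.69 in the MEFs and 4.07 in the ESC-labelled library, which was 0.156 of the MEF level. It was the only complex I gene called lower, with a difference of -2.68 (edgeR adjusted p = 1.6e-05). Exons of Ndufs1 overlap those of Eef1b2, a translation elongation factor gene on the opposite strand with 3626 to 5463 counts, and the TruSeq kit is not stated to keep the strand, so reads from their shared part cannot be told apart. In all, exons of 12 of the 36 genes overlap a protein-coding gene on the opposite strand. Subunits that touch each other in the core therefore spanned from -2.68 to 2.67, with an SD of 1.95 over the 7 genes.

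The 9 accessory subunits of the matrix arm held both the largest rise and 2 genes that lay below both MEF samples. By the rule of 1 log2 unit 6 were higher and 0 lower, with a median difference of 1.65 and an SD of 2.01. Ndufa2 (ENSMUSG00000014294, on chromosome 18), which has a thioredoxin-like fold and sits on Ndufs1, had 412 and 362 counts in OG2 and ICR MEFs, against 3284 in the ESC-labelled library. Its levels of 6.21 and 6.15 in the MEFs and 11.20 in the ESC-labelled library gave a difference of 5.02, or 32.5-fold (edgeR adjusted p = 1.1e-07). The log2 difference of Ndufa2 was smaller in TPM, at 3.39, and was 4.57 in CPM with no scaling factor. The genes with the largest rise and the largest fall thus encode neighbouring proteins of the NADH-binding module. Exons of Ndufa2 overlap Tmco6 on the opposite strand, which had only 21 to 35 counts.

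Ndufs6, a zinc-binding subunit needed late in the assembly of the NADH-binding module, was at 4.98 and 4.59 in the MEFs and 8.89 in the ESC-labelled library, a difference of 4.10 (edgeR adjusted p = 3.4e-07). It overlaps Mrpl36 on the opposite strand, with 142, 103 and 152 counts. Ndufa5, on the ubiquinone module, was at 4.74, 4.75 and 8.71, a difference of 3.96 (edgeR adjusted p = 1.7e-07). For both genes the gap to the MEFs was far wider than the gap between the MEF samples. Ndufv3, beside Ndufv1 and Ndufv2, was higher by 2.78, Ndufs4, whose loss gives mice a Leigh-like syndrome, by 1.65 and Ndufa12 by 1.62, although in TPM Ndufs4 differed by 0.084 and Ndufa12 by -0.058. Ndufa7 was higher by 0.98, under the rule of 1 unit but called by edgeR (adjusted p = 3.8e-04), and it differed by -0.41 in TPM.

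Ndufa6 and Ndufa9 stood apart from these. Ndufa6 (ENSMUSG00000022450, chr15:82350140-82354322, minus strand), an LYR-motif protein that anchors an acyl carrier subunit on the matrix arm, had 230 and 213 counts in the MEFs and 34 in the ESC-labelled library, or 19.8 CPM before scaling (95% Wilson interval 14.2 to 27.7). It was at 5.39 and 5.40 in the MEFs and at 4.67 in the ESC-labelled library, and its difference of -0.73 was not called (edgeR adjusted p = 0.052), but edgeR with no filter on low counts called it lower (adjusted p = 0.013), and it was at -1.16 with no scaling factor and -1.51 with length bins. Ndufa9, at the junction of the arms near the ubiquinone site, was at 6.40 and 6.38 in the MEFs and at 6.03 in the ESC-labelled library, and its difference of -0.35 was not called (edgeR adjusted p = 0.36). Both lay below both MEF samples, which were at most 0.02 apart, and both were lower in TPM as well, with differences of -2.37 and -1.92.

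The 19 accessory subunits of the membrane arm held no gene below the MEF samples in CPM, although Ndufb4 and Ndufb3 turned to -0.066 and -0.16 with no scaling factor and to -0.11 and -0.46 with length bins. By the rule of 1 log2 unit 14 were higher and 0 lower, and edgeR called 17 higher. Their median difference was 2.33 with an SD of 1.23, from 0.27 for Ndufb3 to 4.25 for Ndufb7. Ndufb7 (ENSMUSG00000033938, chr8:83566671-83571626, plus strand), a disulfide-bonded CHCH-domain protein on the intermembrane-space side, had 303 and 262 counts in OG2 and ICR MEFs, against 1412 in the ESC-labelled library. Its levels of 5.78, 5.69 and 9.99 correspond to a 19.0-fold higher level. Its log2 difference was smaller in TPM, at 2.64, and was 3.80 in CPM with no scaling factor. Ndufa10, which has a nucleoside kinase-like fold and lies on the matrix face of the membrane arm, had 605, 474 and 1905 counts and levels of 6.76, 6.53 and 10.42, a difference of 3.77 (edgeR adjusted p = 3.7e-07).

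The other CHCH-domain subunits of the same face were higher by 3.23 for Ndufb10, 2.76 for Ndufs5 and 2.33 for Ndufa8. Of the small membrane-spanning subunits, Ndufa3 was higher by 3.39, Ndufa11 by 3.36, Ndufc1 by 2.41 and Ndufc2 by 2.13, while the X-linked Ndufa1 was higher by 1.30 in CPM but differed by -0.37 in TPM. Ndufb5 was higher by 2.90 and Ndufb2 by 2.66. Ndufa13, known as GRIM-19, was higher by 1.76 and Ndufb6 by 1.62, but by only 0.18 and 0.47 in TPM. These genes together with Ndufb7 and Ndufa10 are the 14 that passed the rule of 1 unit.

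The remaining 5 subunits of the membrane arm were within 1 log2 unit of the MEFs. Ndufb9, another LYR-motif subunit, was higher by 0.86, Ndufb8 by 0.59 and the X-linked Ndufb11 by 0.47, and edgeR called all 3 (adjusted p = 3.6e-04, 0.0077 and 0.0077), but in TPM Ndufb9 and Ndufb11 differed by -0.76 and -1.12, and a correction for gene length turned Ndufb8 and Ndufb11 to -0.14 and -0.25. DESeq2 called neither Ndufb8 nor Ndufb11 (adjusted p = 0.095 and 0.14). Ndufb4 was at 5.59, 5.28 and 5.81, and its difference of 0.38 was not called (edgeR adjusted p = 0.052), but with median-of-ratios factors edgeR called it (adjusted p = 0.023). Ndufb3, with 123, 101 and 35 counts, was at 4.51, 4.36 and 4.71. Its difference of 0.27 was not called (edgeR adjusted p = 0.19) where the gap between the MEF samples was 0.15, and in TPM it was -1.31.

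Ndufa4, which carries a complex I name but is a subunit of complex IV, had 676 and 600 counts in the MEFs and 904 in the ESC-labelled library. Its levels were 6.92, 6.87 and 9.34, a difference of 2.45 (edgeR adjusted p = 1.5e-06). Without it 25 of 35 genes were higher and 1 lower by the rule of 1 unit.

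Promoter sequence was compared for factors known to drive nuclear genes of respiration. RefSeq windows from 250 bases before to 50 after the start on GRCm38.p6 were at hand for 32 of the 36 genes, and no window was used for genes such as Ndufa2, Ndufb9 and Ndufs1. The windows before the RefSeq start are shown for 2 genes with a large rise and for 2 genes that lay below both MEF samples. In M21 the genes Ndufb7, Ndufs6 and Ndufa6 start inside these windows. The window ends, with the motif marked in Ndufb7, therefore lie within those M21 genes. The windows are printed 5′ to 3′ on the strand of the gene, with motif letters in capitals. They lie at chr8:83566508-83566757 (plus strand) for Ndufb7, chr13:73328483-73328732 (minus) for Ndufs6, chr15:82354292-82354541 (minus) for Ndufa6 and chr6:126849145-126849394 (minus) for Ndufa9.
Ndufb7: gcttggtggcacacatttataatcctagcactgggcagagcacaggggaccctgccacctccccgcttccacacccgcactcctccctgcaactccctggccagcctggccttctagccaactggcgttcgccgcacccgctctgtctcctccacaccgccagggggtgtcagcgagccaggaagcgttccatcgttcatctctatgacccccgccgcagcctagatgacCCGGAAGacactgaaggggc
Ndufs6: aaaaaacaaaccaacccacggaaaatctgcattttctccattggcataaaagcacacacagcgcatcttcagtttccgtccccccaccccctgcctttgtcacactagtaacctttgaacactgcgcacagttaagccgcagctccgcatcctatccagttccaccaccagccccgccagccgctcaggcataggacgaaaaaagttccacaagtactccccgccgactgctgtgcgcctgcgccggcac
Ndufa6: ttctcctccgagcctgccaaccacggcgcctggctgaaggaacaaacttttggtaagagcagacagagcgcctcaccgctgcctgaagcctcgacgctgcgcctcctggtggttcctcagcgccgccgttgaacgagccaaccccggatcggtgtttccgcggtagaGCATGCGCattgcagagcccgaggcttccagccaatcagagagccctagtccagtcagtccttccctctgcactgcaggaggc
Ndufa9: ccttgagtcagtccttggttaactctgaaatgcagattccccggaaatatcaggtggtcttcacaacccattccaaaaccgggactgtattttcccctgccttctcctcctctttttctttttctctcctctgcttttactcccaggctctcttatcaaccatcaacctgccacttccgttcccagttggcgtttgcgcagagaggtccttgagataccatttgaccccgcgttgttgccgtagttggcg

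In the window of Ndufb7 the capitals mark CCGGAAG, a core motif of GABP, and in that of Ndufa6 they mark GCATGCGC, the reverse complement of the NRF1 motif GCGCATGC. The windows of Ndufs6 and Ndufa9 held none of the motifs before the start. Both genes held the YY1 motif AAGATGGCG when the full 300-base windows were searched, which reach 50 bases past the start. The place of this motif in them was not recorded. The end of CCGGAAG can share letters with the start of AAGATGGCG, but no complex I gene held more than 1 of the motifs. Over both strands of the 300-base windows, AAGATGGCG was found in 5 of 32 complex I genes (15.6%, Ndufa9, Ndufc1, Ndufs4, Ndufs6 and Ndufs7) against 1.64% of 27025 genes. CCGGAAG was found in 4 (12.5%) against 9.93%, GCGCATGC in 3 (9.38%) against 3.05%, and the ERR motif TCAAGGTCA in 0 against 0.466%. The median difference of the 12 genes with any motif was 2.09 and that of the others 2.29. For single motifs it was 1.73 with and 2.35 without the GABP motif, 2.33 and 2.13 for NRF1, and 2.38 and 2.13 for YY1.

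Levels of different genes were compared in TPM, which is per length. In the MEFs the 36 genes lay within a narrower band than in the ESC-labelled library. Their TPM ranged from 41.5 to 764 in OG2 MEFs and from 35.9 to 764 in ICR MEFs, with an SD of log2(TPM + 1) of 0.83 and 0.81. In the ESC-labelled library they ranged from 10.4 to 3891, a 376-fold range against 18.4-fold and 21.3-fold in the MEFs, and the SD was 1.78. The fold ranges of the MEFs rest on Ndufa4, a complex IV subunit with the highest TPM, and on Ndufa11, with the lowest. Next below Ndufa4 was Ndufc1, at 429 and 394 TPM. The TPM of Ndufa11 rests on a length of 2661 bases, against 545 in M21. Without Ndufa4 the SD was 0.76 and 0.74 for the MEFs, against 1.77 for the ESC-labelled library. The complex I genes together took 0.247% and 0.227% of the counts in the MEFs and 1.01% in the ESC-labelled library, and their summed TPM was 7931, 7443 and 19265.

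The order of the genes by TPM also differed. Spearman's rho over the 36 genes was 0.94 between the MEF samples but 0.52 and 0.44 between each of them and the ESC-labelled library. The annotation was the same for all 3, but RSEM weights gene length by transcript abundance, so length could differ between libraries. By at least 25%, 8 genes were shorter in the ESC-labelled library. The part of these lengths in the order was not tested. Ndufa4 was first in both MEF samples (764 and 764 TPM) and at place 3 in the ESC-labelled library (1317 TPM). Ndufa2 was at places 4 and 3 in the MEFs (371 and 370 TPM) and first in the ESC-labelled library (3891 TPM). Ndufv1 went from places 32 and 30 (116 and 120 TPM) to place 7 (1027 TPM), and Ndufa6 from places 16 and 13 (214 and 225 TPM) to place 33 (41.5 TPM). The length of Ndufv1 was 1652 and 1529 bases in the MEFs, against 499 in the ESC-labelled library. That of Ndufa6 was 560 bases in every library. Ndufs1 was at place 33 in both MEF samples (93.7 and 101 TPM) and last, at place 36, in the ESC-labelled library (10.4 TPM).

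Between OG2 and ICR MEFs 0 of the 36 genes were 1 log2 unit apart, and 2.76% of all genes were, so a count of 0 is near the background. The difference of OG2 minus ICR MEFs had a median of 0.14 and ranged from -0.43 for Ndufa1 to 0.48 for Ndufa8, and 29 of 36 genes were higher in OG2 MEFs. For 12 of 36 genes it was over 2 counting SEs. Over all genes with a count the median of this difference was 0. The shares of all genes that were higher in OG2 MEFs or over 2 counting SEs were not computed. With 1 library for each strain the difference has no replicate check.

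The ratio to MEFs varied more within the complex than the ratio between the MEF samples. The SD of the log2 difference over the 36 genes was 1.60, against 0.18 between the MEF samples, a ratio of 9.02. Counting error alone would give an SD of 0.133 for the former and 0.128 for the latter, so the former was 12.0 times and the latter 1.38 times its counting error. Over all genes with a count the SD of the difference was 1.86, and over those with at least 10 counts it was 2.12, so the complex I genes were no more spread than genes in general. As folds, the ratio to MEFs ranged over 208-fold from Ndufs1 to Ndufa2, and the ratio of OG2 to ICR MEFs ranged over 1.88-fold.

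**Figure D2:**
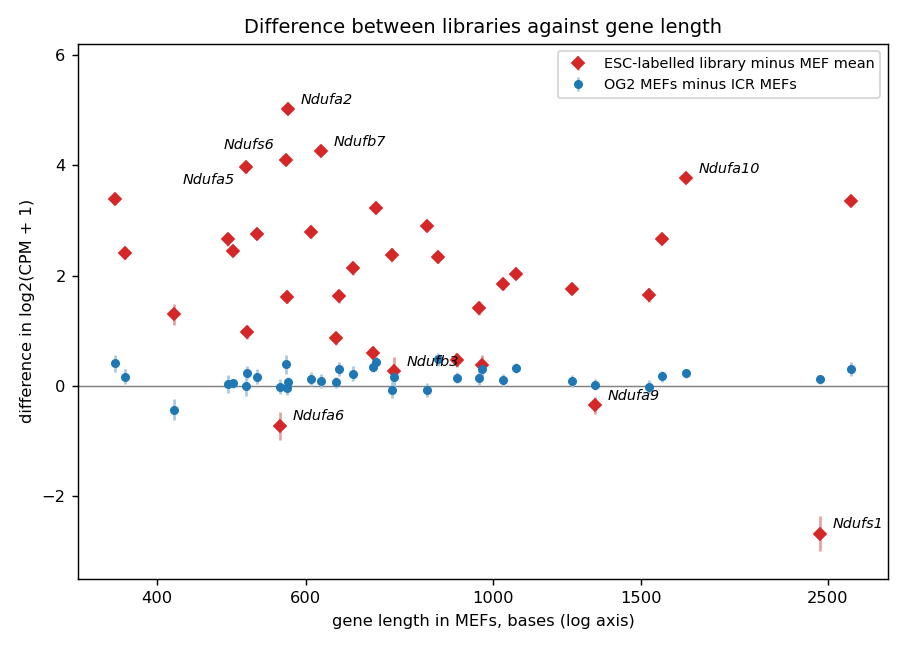
Difference in log2(CPM + 1) of 35 complex I genes (y axis) against gene length as the mean of both MEF samples (x axis, log scale), for the ESC-labelled library minus the MEF mean (diamonds) and for OG2 minus ICR MEFs (circles), with bars of 1 counting SE. The diamonds spread from -2.68 to 5.02, whereas the circles stay between -0.43 and 0.48, and the 5 highest and the 4 lowest diamonds are named.

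Length, as the tables give it, went along with little of this spread. Spearman's rho of the difference with length in MEFs was -0.26 over the 36 genes and -0.37 over the 12726 genes with at least 10 counts, where all points share the same 3 libraries. The 18 shorter genes (356 to 721 bases) had a median difference of 2.43 and an SD of 1.47, and 14 of them were higher by 1 unit and 0 lower. The 18 longer genes (727 to 2661 bases) had a median of 1.80 and an SD of 1.65, and 12 were higher and 1 lower. Genes of nearly the same length differed widely. Ndufs6 at 568 bases was at 4.10 and Ndufa6 at 560 bases at -0.73. Of the longer genes, Ndufa10 and Ndufs1 were less alike in length. Ndufa10 at 1695 bases (1424 in OG2 and 1965 in ICR MEFs) was at 3.77 and Ndufs1 at 2448 bases at -2.68. In TPM rho with length was -0.14 and the SD stayed at 1.52. With GC content of the M21 transcripts rho was 0.20, and with the level in MEFs it was -0.19. The fragments differed between the libraries as well. The gap between length and effective length, which follows the mean fragment length that RSEM used, was 178 and 164 bases in the MEFs and 143 in the ESC-labelled library, and its part in the spread was not tested.

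The length itself was not the same in all libraries, because RSEM weights the length of a gene by the abundance of its transcripts. GENCODE M21 is not the annotation behind the tables. The authors' annotation lists 1 transcript for 14 of the 36 genes. Their length was the same in every library, but it was that of M21 for only 6 of them. For Ndufa11 it was 2661 bases, against 545 in M21. Of the 22 genes with more transcripts there, 17 were shorter in the ESC-labelled library, some only slightly. The share of all genes shorter to any degree was not computed. By at least 25%, 8 of the 17 were shorter, and 0 of the 22 were longer by 25%. Among 6246 genes with several listed transcripts and at least 10 counts in each library, 18.1% were shorter by 25%, and 2.59% in ICR against OG2 MEFs. Of the complex I genes only Ndufa10 differed by 25% between the MEF samples (1424 and 1965 bases).

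**Figure D3:**
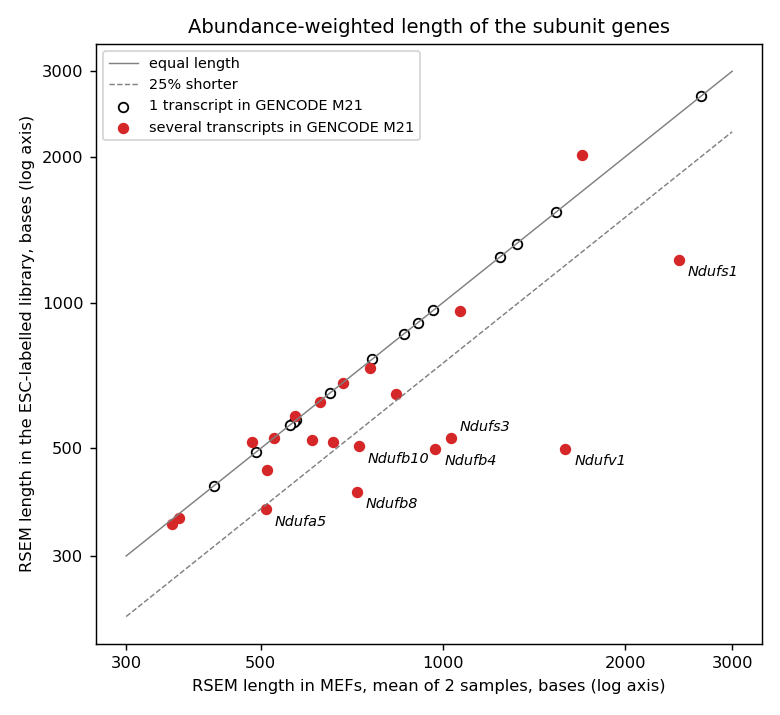
Abundance-weighted length from RSEM of 35 complex I genes in the ESC-labelled library (y axis, bases, log scale) against the mean of both MEF samples (x axis, bases, log scale). Open points are genes with 1 transcript in the authors' annotation and filled points those with several, although the legend names GENCODE M21. The 14 open points lie on the line of equal length, and 7 filled points, which are named, lie below the dashed line of 25% shorter.

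Of the 8 genes 4 were core subunits. Ndufv1 had a length of 1652 and 1529 bases in OG2 and ICR MEFs, against 499 in the ESC-labelled library, which was 31.4% of the MEF length. Ndufs1 went from 2548 and 2349 to 1223 (49.9%) and Ndufs3 from 1039 and 1019 to 525 (51.0%). The authors' annotation lists 10 transcripts for Ndufv1. By their M21 lengths only 2 are shorter than its length in the ESC-labelled library, and M21 annotates both as retained introns. The lengths and types of these transcripts in the authors' annotation are not given in the sources used here.

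The other 4 genes were accessory subunits. Ndufb4 was at 971 and 971 bases in the MEFs and at 499 in the ESC-labelled library (51.4%). It has 2 listed transcripts, of 971 and 465 bases in M21, and M21 annotates the shorter as a retained intron. By these lengths the shorter made up 93.3% of its abundance in the ESC-labelled library, against 0% in both MEF samples. Ndufb8 was at 56.5% of its MEF length, Ndufb10 at 69.5% and Ndufa5 at 73.4%. Because TPM divides by this length, it moved the value of such genes. Ndufv1 differed by 2.67 in CPM and by 3.11 in TPM, although the median of all genes was lower in TPM. Among the 14 genes with 1 listed transcript the SD of the difference was 1.64 and rho with length was -0.01, and among the 22 others the SD was 1.60 and rho -0.32. The part of transcript assignment in the spread was not tested.

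The other parts of the respiratory chain were compared with the same rule of 1 log2 unit. Ndufab1, the acyl carrier subunit that complex I shares with fatty acid synthesis, was higher by 1.65. Of 16 complex I assembly factors, which act on the complex but are not part of it, 6 were higher and 2 lower, with a median of 0.86, from 2.45 for Ndufaf2 to -1.86 for Tmem126b, which had only 5 counts in the ESC-labelled library. Complex II, the succinate dehydrogenase, had 0 of 4 subunits higher and 2 lower, and 4 genes are too few to set apart from the 21.9% and 25.9% of all genes. Its subunits ranged from -0.50 for Sdhc to -2.32 for Sdhd, with a median of -0.91.

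Complexes III, IV and V, all of which pump or use protons, had medians near that of complex I in CPM. In TPM their medians were 0.30, -0.03 and 0.26, against 0.68 for the 36 genes and -2.50 for complex II. The median of the 12726 genes with at least 10 counts was -1.54 in TPM. The values that follow are in CPM. Complex III, the cytochrome bc1 complex, had 5 of 9 subunits higher and 1 lower (median 1.88, SD 2.13), from 3.64 for Uqcrq to -2.45 for Uqcrc2. Complex IV, the cytochrome c oxidase, had 7 of 10 higher and 0 lower (median 1.59, SD 1.03), from 2.94 for Cox6b1 to -0.16 for Cox8a. Complex V, the ATP synthase, had 10 of 15 higher and 2 lower (median 1.79, SD 2.25), from 5.57 for Atp5e to -2.94 for Atp5g2. A wide spread within a complex was thus not particular to complex I in these libraries, and the SD between the MEF samples was 0.14 to 0.32 in these 3 complexes.

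**Figure D4:**
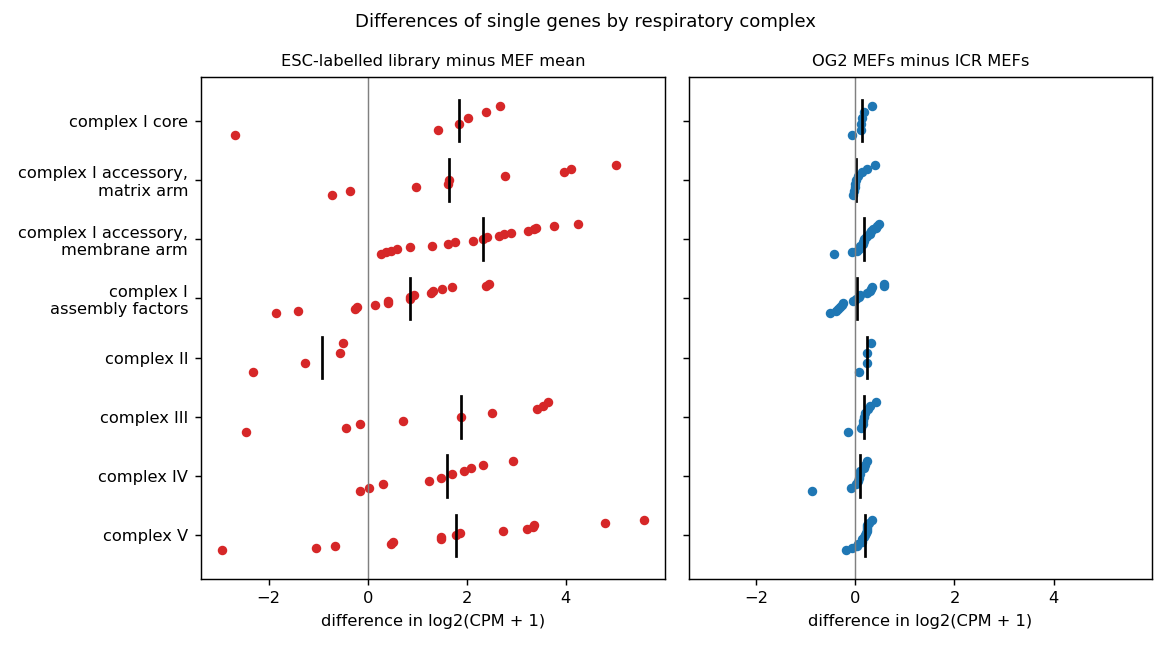
Difference in log2(CPM + 1) of each gene (x axis), with 1 point per gene (1 core subunit is not drawn) and the median of the whole class as a bar, for the classes of complex I subunits, its assembly factors and complexes II to V, with the ESC-labelled library minus the MEF mean on the left and OG2 minus ICR MEFs on the right. On the left the points spread over several log2 units in every class but complex II, whose median of -0.91 lies below 0, and on the right all points lie within 1 log2 unit of 0.

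Of the genes in these lists, the levels of Atp5l (complex V), Ndufab1 and Cox7a2 (complex IV) lay nearest to the complex I median of 5.76 and 5.62 in OG2 and ICR MEFs, against 7.64 in the ESC-labelled library, at Euclidean distances of 0.720, 0.871 and 1.09 log2 units over the 3 libraries. Of 9 regulators of nuclear respiratory genes, 2 were higher and 2 lower, with a median of -0.01, shares near those of all genes (21.9% and 25.9%). Ppargc1b, a coactivator, was counted as higher with only 3, 9 and 9 counts. Esrra, the estrogen-related receptor alpha, had 151 and 139 counts in the MEFs and 172 in the ESC-labelled library and was higher by 2.16. Gabpa, the DNA-binding subunit of GABP, had 292 and 285 counts in the MEFs but 9 in the ESC-labelled library, a difference of -2.87. Gabpb1, its partner, had 111 and 105 counts in the MEFs and 3 in the ESC-labelled library, which is at the detection limit, so its size of change is not given. Ppargc1a, the coactivator PGC-1alpha, had 5, 3 and 0 counts, which is at or near the detection limit in every library.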

How the data were processed

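RNA-seq tables of OG2 MEFs, ICR MEFs and R1 ESCs were used, with 1 library each. Per the labels, the processing used Bowtie, RSEM and mm10, with no versions. The paper's methods name TRIMMOMATIC, bowtie2, transcripts of Ensembl v67 and a GC-content normalization after RSEM. The deposited RSEM tables hold expected counts, taken as values before that normalization. They also hold TPM, which the authors' RSEM run scaled by effective length to a fixed sum, and deposited FPKM values, which were not used because they order genes as TPM does. The tables hold no coordinates, and promoter positions are those of RefSeq.

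Expected counts were rounded to whole numbers for edgeR and DESeq2. CPM was scaled with TMM factors (1.09, 1.13 and 0.812) and used on the log2(CPM + 1) scale (pseudocount 1). Differences were taken between the ESC-labelled library and the MEF mean. A threshold of 1 log2 unit was used after the paper, which names no test for the selection of genes by RNA-seq. The paper set it for genes changed by treatment during reprogramming, and took top-ranked genes for MEFs and ESCs. That it be met against both MEF samples was a choice made here. The quasi-likelihood test of edgeR 4.0.16 (R 4.3.3) with filterByExpr and Benjamini-Hochberg adjustment was run over 12663 genes, with an adjusted p under 0.05 called. Its script was tested on simulated counts with the same spread in all libraries, which does not bear on the unknown spread of the ESC-labelled library. DESeq2 1.42.0 was an alternative. Others were pseudocounts of 0.1 and 5, no scaling factor, median-of-ratios factors, TPM, at least 10 counts in 1 library, 20 bins of gene length or GC content, and each MEF sample left out. Python 3.11.15, numpy 2.4.6, pandas 2.3.3, scipy 1.17.1 and matplotlib 3.10.9 were used.

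Gene identifiers were matched to GENCODE M21 on GRCm38 (98.3% matched), which also gave transcript lengths and types, overlaps and GC content. It is not the annotation behind the tables: of 14 complex I genes with 1 listed transcript, 8 have another length in the tables. The transcripts counted for each gene are those of the authors' annotation. Their M21 lengths and types, the overlaps and GC content hold for M21 only. The genes given in full were the 7 core subunits and the 5 with the largest and 5 with the smallest difference. The values of 1 gene that this rule names are not reported here, and it enters only counts and summaries. The complex I genes, the roles, the other lists and the rule were chosen with earlier results of these data known. The depth of 5149312, 4590619 and 1717838 counts sets the precision, and Wilson intervals at 95% and the limit of 3 counts cover counting error only. With no replicate of any strain or line, p-values measure only the spread between these samples. Of the 36 genes, 5 (Ndufb6, Ndufc1, Ndufs1 and Ndufv3 among them) had counts that were not whole, so they share reads with other genes. Coa1, on the list of assembly factors, was not analysed here.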

Additional observations from a re-analysis of the deposited data

How the results depend on the processing

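All 36 differences were computed under 11 settings, the reported one included. In TPM 13 genes were higher and 5 lower by the rule of 1 unit, with a median of 0.68, an SD of 1.52 and a rho with length of -0.14, and Ndufa1, Ndufa12 and Ndufs8 turned to -0.37, -0.058 and -0.17. With a correction over bins of gene length 22 were higher and 2 lower (Ndufa1, Ndufa12, Ndufs8 and Ndufb6 at 0.52, 0.84, 0.93 and 0.84), the median was 1.51, the SD 1.53 and rho -0.17. With no scaling factor 24 were higher and 2 lower, and the median was 1.63. Of all genes, 9.12% were higher and 43.2% lower in TPM, 23.9% and 21.4% with length bins, and 16.7% and 31.6% with no scaling factor. A pseudocount of 5 gave an SD of 1.54, and bins of GC content an SD of 1.57 and a rho of -0.30. The cause of these shifts was not tested. The median of the 12726 genes itself moved by 0.17 with median-of-ratios factors, -0.40 with no scaling factor, 0.30 with length bins and 0.13 with GC bins or a pseudocount of 5.

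Leaving out OG2 or ICR MEFs gave 26 to 27 genes higher and 1 lower, a median of 1.94 to 2.22, an SD of 1.59 to 1.61 and a rho of -0.27 to -0.25. Of all genes, 23.7% to 23.9% were then higher and 28.2% to 28.8% lower. Under every setting 23 genes stayed positive, 4 negative, and 13 over 1. EdgeR called 3 genes lower with no filter on low counts, Ndufa6 among them, while DESeq2 called 28 higher and 1 lower. The shares of all genes called in these runs were not computed. EdgeR was not run without a MEF sample, since 1 against 1 leaves no residual degree of freedom. No paired analysis was possible because the group of ESCs has 1 sample and the labels give no replicate numbers. The 22 to 35 counts of Ndufs1, Ndufa6 and Ndufb3 in the ESC-labelled library limit their precision most.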
